A study of Homo sapiens with 30 samples.

Results

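The 56 genes described here are those that a dividing cell transcribes to pass through G2 and mitosis: mitotic kinesins, cyclins and their kinase, checkpoint and kinetochore proteins, condensins, and the regulator FOXM1. They were chosen by gene symbol from a list made with earlier results of these data known. All 56 of 56 were found among the 58780 genes of the count table. The values come from PRO-seq, a run-on assay that labels RNA still being made by engaged RNA polymerase, so a count reflects nascent transcription and not the amount of mature mRNA. The cells were A549, an established line from a human lung adenocarcinoma. They were exposed to dexamethasone (Dex, a synthetic glucocorticoid), to GSK591 (an inhibitor of PRMT5, the main enzyme that symmetrically dimethylates arginine) or to MS023 (an inhibitor of the Type I PRMTs, which asymmetrically dimethylate arginine).

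The 30 libraries fall into 15 groups of 2. Dex was given at 100 nM and each inhibitor at 1 µM, in 0.01% DMSO. The groups are untreated cells; Dex for 15 min or for 3 h; Dex together with GSK591 or with MS023 for 3 h; GSK591 or MS023 alone for 2, 4 or 7 d; and 7 d of either inhibitor with Dex then given for 15 min or for 3 h. The untreated cells, labelled as a 15 min DMSO exposure, were the control for every time, so time in culture is not matched in the comparisons at 2, 4 and 7 d. Nothing in the labels says that the 2 replicates of a group were separate cultures, so p-values measure the spread between libraries, which may be technical.

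Mitosis begins when CDK1 bound to cyclin B, activated by the CDC25 phosphatases, drives the cell out of G2. Aurora and Polo-like kinases then build the spindle, kinesins move along its microtubules, and the kinetochore proteins that sit on CENPA chromatin attach chromosomes to it. The spindle assembly checkpoint holds back the anaphase-promoting complex until each chromosome is attached, after which separase (ESPL1) opens cohesin and the cytokinesis proteins divide the cell. Many of these genes share promoter elements, the CCAAT box and the cell cycle homology region (CHR), and are transcribed late in the cycle by the MuvB complex with B-MYB and FOXM1. In resting cells the same complex, as DREAM with E2F4 and a pocket protein, represses them.

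Libraries held 8441211 to 13069598 assigned counts, of which 58.7% to 78.7% lay in mitochondrial genes and 2858 to 16758 in the 56 members. The A549 label was checked against markers: of 5 epithelial genes, the keratin KRT8 was the highest, between 157 and 456 CPM, while EPCAM (median 2.34 CPM) and CDH1 (median 2.64 CPM) were low. AKR1B10 lay between 101 and 209 CPM, and CDKN2A, which this line lacks, at 0.29 CPM or less. PTPRC and CD3E, markers of leukocytes, and DCN and LUM, markers of fibroblasts, were at 0.58 CPM or less in all 30 libraries, but CD14, on the leukocyte list, lay between 0.61 and 5.82 CPM and COL1A1, on the fibroblast list, between 2.41 and 8.24 CPM, levels like those of EPCAM and CDH1. Their part in the results was not tested. CPM here and below are counts per 1000000 counts of the effective library size (TMM scaling in edgeR).

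One library stood apart on these genes more than the others. In replicate 2 of Dex with MS023 for 3 h, 21 of the 56 members were more than 2-fold above replicate 1, against 4.15% of the 11117 genes whose mean was 5 CPM or more. MKI67, the proliferation antigen, was at 68.7 CPM in replicate 1 and 209 CPM in replicate 2, and KIF20B showed the widest gap (2.35 on the log2 scale), while CENPA was lower in replicate 2 (-0.41). Across the 56 members the gap went with gene length (Spearman's rho 0.65) and with the number of exon blocks (rho 0.63), a description over genes that share 2 libraries. The correlation of log2 CPM between the replicates was 0.923 in this group and 0.959 to 0.983 in the other 14 groups. Mitochondrial genes took 61.0% of its counts against 71.2% in replicate 1, and whether this moves the members was not tested. Smaller gaps were seen elsewhere. After GSK591 and 15 min of Dex, 4 members were more than 2-fold higher in replicate 2, against 0.72% of these genes. With Dex for 15 min 2 were, against 0.342%. After MS023 and 3 h of Dex, CENPF was lower in replicate 2 (-1.17). Leaving out 1 library does not remove these gaps. All tests share one estimate of the spread over 30 libraries, so replicate 2 of Dex with MS023 can widen the errors in each comparison. Counts of calls without it are given below. Members with little gap, such as KIF20A (0.90-fold) and AURKB (1.02-fold), gained calls there too, so the gain was not limited to long members.

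Nascent transcription of the mitotic genes fell with GSK591, more so at 4 and 7 d than at 2 d. Summed over the 56 members, untreated cells had 2695 and 2726 counts per 1000000 nuclear (not mitochondrial) counts. With GSK591 the sum was 2095 and 2096 at 2 d, 1378 and 1474 at 4 d, and 1132 and 1225 at 7 d, or 77.3%, 52.6% and 43.5% of the untreated mean. The ranges of the 4 groups did not overlap. In bulk libraries, fewer cells in G2 and mitosis and less transcription per cell cannot be told apart.

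**Figure D1:**
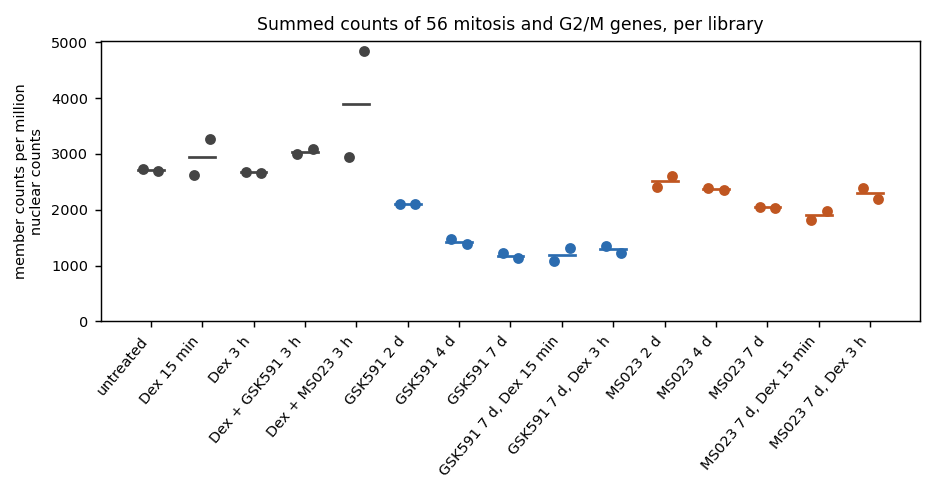
Summed level of the 56 members, in counts per 1000000 nuclear counts (vertical axis, from 0), for each library (points) of the 15 groups; bars are means of 2 libraries. The GSK591 libraries at 7 d lie at 1132 and 1225 against 2695 and 2726 in untreated cells, and 1 library of Dex with MS023 lies at 4837.

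By edgeR's quasi-likelihood test with Benjamini-Hochberg adjustment over 22919 genes (threshold 0.05), 5 members fell and 1 rose at 2 d of GSK591, where 2.45% of all genes were called lower and 3.19% higher. At 4 d 37 of 56 fell and 1 rose, against 8.28% of all genes lower and 8.91% higher. At 7 d 45 fell and 1 rose, against 6.52% lower and 6.68% higher. The median log2 fold change of the members was -0.49, -1.31 and -1.56 at 2, 4 and 7 d, where the medians of all genes were between -0.005 and 0. The 5 genes that fell by 2 d were AURKB, PLK4, ESPL1, KIF18B and BIRC5. At 2 d, leaving out either untreated or either GSK591 library left 1 or 2 lower. At 7 d 28 fell without GSK591 replicate 2. Without replicate 2 of Dex with MS023, 11, 46 and 49 members fell at 2, 4 and 7 d, including each of those called with it. In that fit 3.23%, 8.96% and 7.31% of 24577 genes were called lower. Scaled to total counts, the median of all genes moved to 0.29, 0.42 and -0.03, the member medians were -0.20, -0.89 and -1.58, and 1, 20 and 32 members fell.

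The fall at 7 d of GSK591 took in each of the 11 roles the members were sorted into. All 4 mitotic kinases (PLK1, PLK4, AURKA, AURKB), both chromosomal passengers (BIRC5, INCENP), all 4 cytokinesis genes (ANLN, ECT2, PRC1, RACGAP1) and FOXM1 fell. Of the 11 kinesins 8 fell, with a median of -1.83, and KIF18A, KIF20B and KIF23 did not pass the test. Of the 6 genes for cyclins, CDK1 and CDC25 phosphatases 5 fell (median -0.95), with CCNB2 as the exception. Of the 5 checkpoint genes 4 fell, with TTK (-0.14) the exception. Among chromosome structure genes 5 of 6 fell (median -1.66), among spindle assembly genes 4 of 5, among anaphase genes 4 of 5, and among kinetochore and centromere genes 4 of 7. The other members that did not pass were NUF2, CENPE, DLGAP5, SMC2 and SGO1, with values of -0.70 to -1.74.

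**Figure D2:**
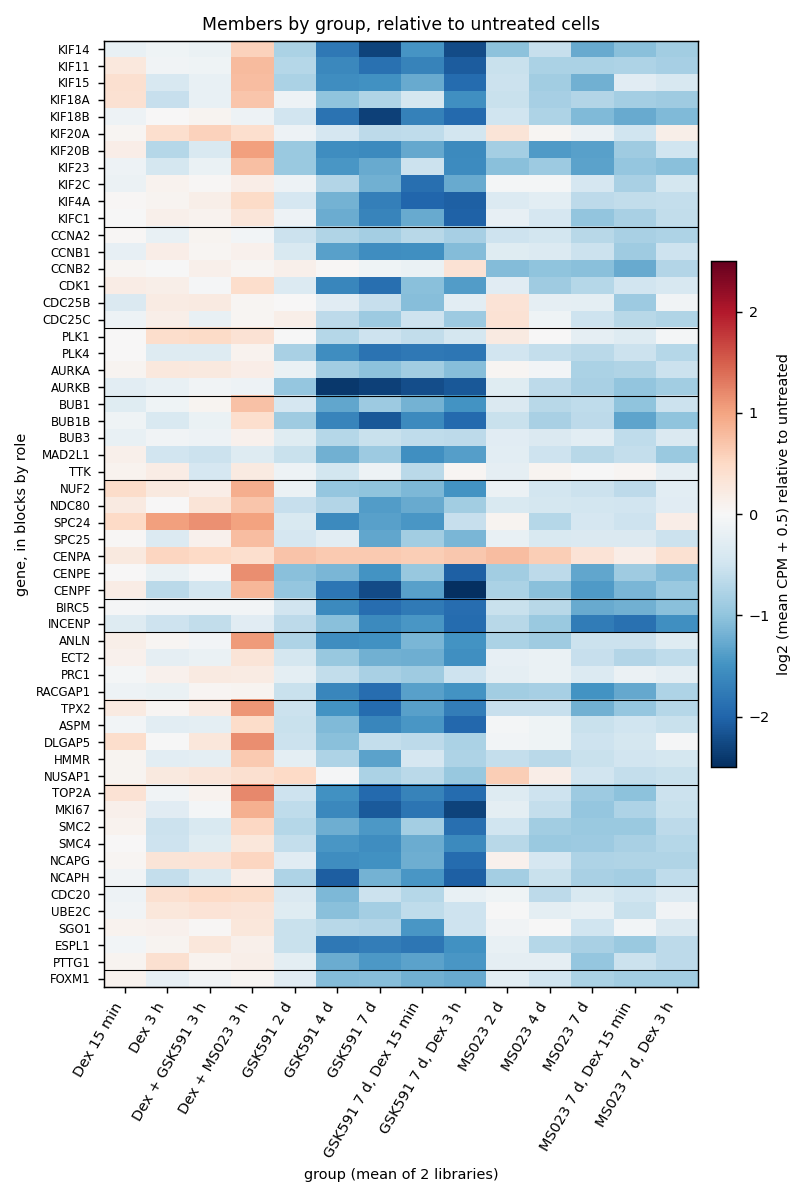
Colour gives log2 of (mean CPM + 0.5) in each of 14 treated groups relative to untreated cells, for the 56 members (rows, in blocks by role); each column is the mean of 2 libraries. The GSK591 columns at 4 and 7 d are blue for nearly all rows, CENPA is red in them, and the raised column of Dex with MS023 contains the library that stood apart.

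AURKB, the kinase of the chromosomal passenger complex, was at 34.0 and 37.8 CPM in untreated cells. It was at 18.1 and 18.3 CPM after 2 d of GSK591, at 5.76 and 6.92 CPM after 4 d and at 5.11 and 8.31 CPM after 7 d. The 2 d libraries lay between the other groups without overlap, and the log2 fold change at 7 d was -2.44 (SE 0.15, adjusted p = 2.28e-17), a 5.41-fold lower level. KIF18B, a kinesin that shortens astral microtubules, went from 34.0 and 35.0 CPM untreated to 25.1 and 23.8 at 2 d, 9.51 and 9.03 at 4 d, and 7.09 and 5.76 at 7 d. Its change at 7 d was -2.41 (SE 0.15, adjusted p = 1.07e-17). These are the members with the smallest adjusted p at 7 d, and neither group overlapped the untreated libraries.

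KIF14, a kinesin of the midbody, had 11.1 and 11.7 CPM untreated and 2.21 and 1.61 CPM at 7 d of GSK591. Its log2 change was -2.56, with a wide error (SE 0.55, adjusted p = 0.00478), and without GSK591 replicate 2 the adjusted p was 0.056. RACGAP1, part of the centralspindlin complex that sets the cleavage plane, went from 9.01 and 9.27 CPM to 1.86 and 2.28 CPM (-2.15, SE 0.31, adjusted p = 1.22e-06). CENPF, a large kinetochore protein made in G2, went from 52.1 and 39.6 CPM to 10.8 and 7.91 CPM (-2.28, SE 0.67, adjusted p = 0.0329). CENPF did not overlap between groups, but its call was lost when any 1 of the untreated or 7 d libraries was left out (adjusted p 0.075 to 0.19).

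BIRC5 (survivin), which holds the passenger complex on centromeres, fell from 27.8 and 28.2 CPM to 8.14 and 6.16 CPM at 7 d of GSK591. PLK4, which licenses centriole duplication, went from 12.5 and 11.8 CPM to 2.79 and 3.22 CPM (-2.01, SE 0.23, adjusted p = 4.98e-09). ESPL1 (separase) fell from 24.2 and 25.7 CPM to 6.74 and 7.64 CPM. All 3 were lower in both treated libraries than in either untreated library at 2, 4 and 7 d.

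The core regulators moved by different amounts. CDK1 was at 7.67 and 5.24 CPM untreated and at 1.05 and 1.74 CPM at 7 d of GSK591 (-2.22, SE 0.34, adjusted p = 4.17e-06). CCNB1 (cyclin B1) went from 12.3 and 15.4 CPM to 4.07 and 4.69 CPM (-1.67, adjusted p = 3.21e-07). PLK1 fell less, from 21.5 and 21.7 CPM to 13.8 and 15.9 CPM (-0.54, SE 0.15, adjusted p = 0.0114), and AURKA, the spindle pole kinase, from 14.0 and 12.3 CPM to 6.74 and 5.63 CPM. FOXM1, the factor that activates late cell cycle genes, was at 17.6 and 20.9 CPM and then at 7.90 and 10.1 CPM (-1.11, SE 0.17, adjusted p = 3.12e-06). In each of these 5 genes the groups did not overlap.

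Genes for chromosome structure and the kinetochore were lower too. TOP2A, the topoisomerase that untangles sister chromatids, went from 46.0 and 42.6 CPM to 12.6 and 9.65 CPM at 7 d of GSK591, and MKI67 from 80.7 and 68.4 CPM to 16.3 and 17.6 CPM (-2.14, SE 0.45, adjusted p = 0.00429). NCAPG, a condensin subunit, went from 6.23 and 4.63 CPM to 1.98 and 1.21 CPM. PTTG1 (securin), which restrains separase, fell from 8.56 and 11.2 CPM to 3.60 and 3.08 CPM, and KIF11, the motor that pushes spindle poles apart, from 15.5 and 12.5 CPM to 4.42 and 2.55 CPM. BUB1, a checkpoint kinase, fell from 6.56 and 5.04 CPM to 2.79 and 2.95 CPM. At low levels the test had less reach: NDC80 was called at 3.00 and 1.91 against 0.70 and 0.54 CPM (adjusted p = 0.00922), whereas SGO1, the cohesin protector, was at 2.78 and 1.81 against 1.05 and 1.34 CPM (-0.94, 95% interval -1.86 to -0.01, adjusted p = 0.197).

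**Figure D3:**
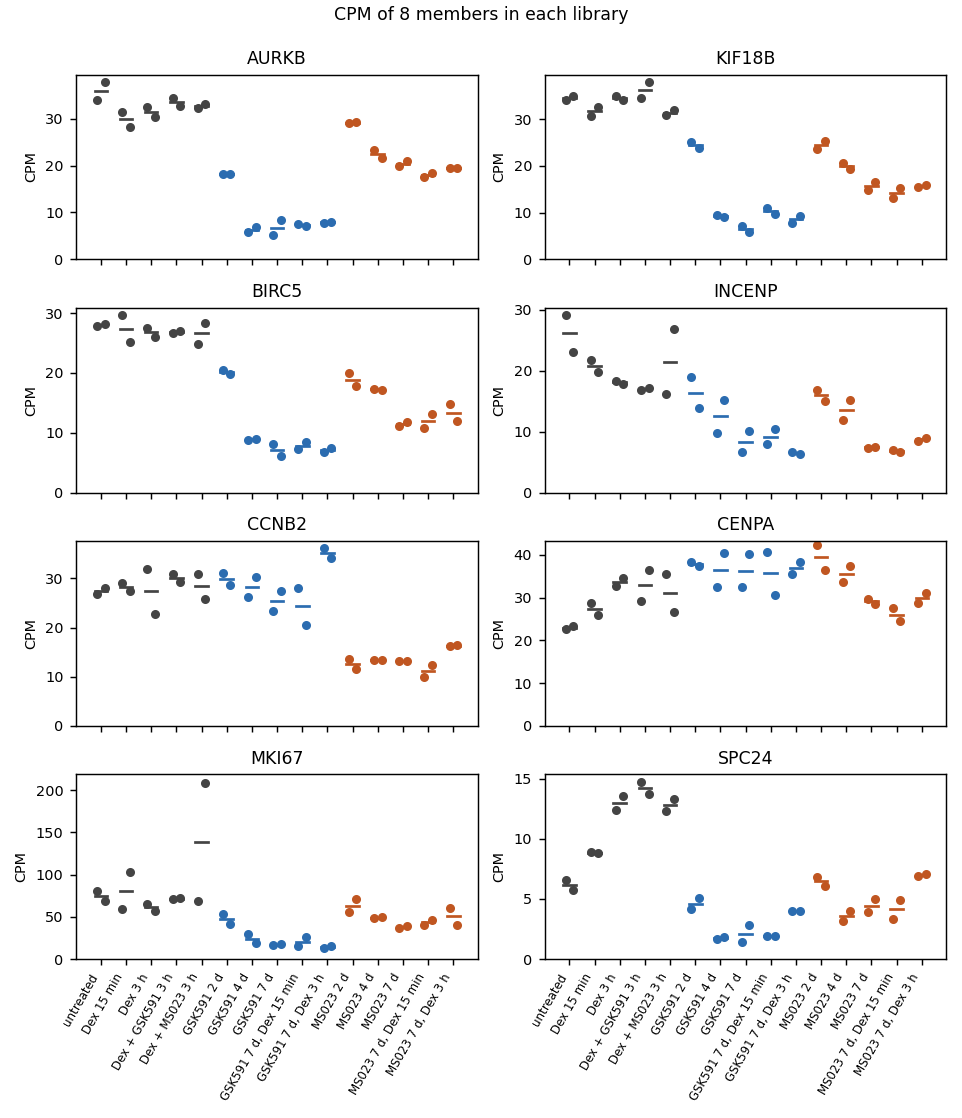
CPM (vertical axes, from 0, a scale for each panel) of 8 members in each of 30 libraries (points, with the mean of 2 as a bar; grey without a pretreatment, blue GSK591, orange MS023). AURKB, KIF18B and BIRC5 are lowest at 4 and 7 d of GSK591, CCNB2 is low in the MS023 libraries and CENPA is above untreated cells in the GSK591 and MS023 libraries.

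CENPA, the histone H3 variant of centromeres, went the other way. It was at 22.7 and 23.3 CPM untreated, 38.3 and 37.4 at 2 d of GSK591, 32.6 and 40.3 at 4 d, and 32.4 and 40.2 at 7 d. The rise was 0.72 (SE 0.14, adjusted p = 0.00108), 0.66 (adjusted p = 5.25e-04) and 0.66 (adjusted p = 0.001), and no treated library overlapped the untreated ones. Unscaled CENPA counts were 204 and 231 untreated and 260 or more in each treated library, Dex and MS023 included. CENPA was also called higher at 2 and 4 d of MS023 and at 3 h of Dex, against the same untreated libraries. Its rise was thus not particular to GSK591. At 7 d its adjusted p was 0.067 without GSK591 replicate 2 and 0.078 with total counts. In the annotation that matches the table's identifiers (GENCODE 29), the CENPA gene spans chr2:26764289-26801067 on the plus strand and shares exons on that strand with SLC35F6. RefSeq places the CENPA start 21767 bases downstream of that annotated end. SLC35F6 itself did not pass the test (-0.03, -0.03 and -0.05 at 2, 4 and 7 d), and the authors' deposited table gives CENPA changes of -0.10, -0.49 and -0.03, so its direction differs between the deposited files and what the row of the count table measures was not tested.

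CCNB2 (cyclin B2) did not pass the test with GSK591. It was at 26.9 and 28.0 CPM untreated, at 31.1 and 28.7 at 2 d, at 26.2 and 30.2 at 4 d, and at 23.4 and 27.3 at 7 d. The change at 7 d was -0.12, with a 95% interval of -0.40 to 0.16. The authors' deposited table instead gives CCNB2 -0.51, -1.32 and -1.59 at the 3 times. TTK, the checkpoint kinase MPS1, was at 3.56 and 3.83 CPM untreated and at 3.72 and 2.95 CPM at 7 d, where the authors' deposited table gives -2.30.

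Many members carry the same promoter letters, shown here because the genes fell together. RefSeq promoter windows (GRCh38.p14, 250 bases before to 50 after the transcription start) were matched for 48 of the 56 members. TTTGAA, the core of the CHR, was found on either strand in 35 of 48 (72.9%), and in 15.4% of 27305 promoters. CCAAT was found in 35 of 48 (72.9%), and in 35.7% of promoters. Both were found in 26 of 48 (54.2%) and in 6.08% of promoters. The 45 TTTGAA matches started at a median of 26 bases before the start site. For 10 of the 48 members the RefSeq start lies more than 250 bases from the 5′ end of the gene in GENCODE 29. A match is a description of letters and not of a bound site.

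The stretches below run from 170 bases before the start to 20 after it, 5′ to 3′ along the gene, with TTTGAA and CCAAT or their reverse complements (TTCAAA and ATTGG) in capitals. By the count table, KIF14, KIF18B and MKI67 are among the deepest falls with GSK591, PLK1 fell little, and CCNB2 and CENPA were not called lower. They lie at chr1:200620732-200620921 (minus strand, KIF14), chr17:44947754-44947943 (minus, KIF18B), chr10:128126404-128126593 (minus, MKI67), chr16:23678719-23678908 (plus, PLK1), chr15:59104976-59105165 (plus, CCNB2) and chr2:26785886-26786075 (plus, CENPA).
KIF14: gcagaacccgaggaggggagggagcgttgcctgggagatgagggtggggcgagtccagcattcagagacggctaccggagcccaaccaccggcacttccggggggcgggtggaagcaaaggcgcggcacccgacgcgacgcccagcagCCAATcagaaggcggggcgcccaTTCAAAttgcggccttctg
KIF18B: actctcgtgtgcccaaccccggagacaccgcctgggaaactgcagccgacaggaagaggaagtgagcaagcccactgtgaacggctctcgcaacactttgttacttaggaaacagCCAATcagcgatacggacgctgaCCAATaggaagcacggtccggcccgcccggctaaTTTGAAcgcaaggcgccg
MKI67: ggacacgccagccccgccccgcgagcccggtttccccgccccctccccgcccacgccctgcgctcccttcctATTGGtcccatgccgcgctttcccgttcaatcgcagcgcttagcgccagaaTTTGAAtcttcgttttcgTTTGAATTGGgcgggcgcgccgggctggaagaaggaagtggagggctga
PLK1: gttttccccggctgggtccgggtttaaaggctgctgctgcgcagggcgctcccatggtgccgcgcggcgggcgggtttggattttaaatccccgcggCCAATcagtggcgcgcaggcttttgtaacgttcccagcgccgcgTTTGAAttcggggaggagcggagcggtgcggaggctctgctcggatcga
CCNB2: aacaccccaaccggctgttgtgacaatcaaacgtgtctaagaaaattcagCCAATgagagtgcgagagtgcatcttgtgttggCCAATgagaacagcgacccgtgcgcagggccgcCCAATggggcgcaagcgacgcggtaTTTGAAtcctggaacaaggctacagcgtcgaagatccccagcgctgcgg
CENPA: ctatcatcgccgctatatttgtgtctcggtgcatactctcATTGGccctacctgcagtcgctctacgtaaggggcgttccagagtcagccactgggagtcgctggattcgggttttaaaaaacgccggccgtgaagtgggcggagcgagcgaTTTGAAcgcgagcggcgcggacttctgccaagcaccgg
Each of the 6 stretches holds at least 1 TTTGAA and at least 1 CCAAT. CCNB2 has 3 CCAAT matches and 1 TTTGAA, and KIF18B has 2 and 1. In MKI67 the second TTTGAA overlaps an ATTGG. By the count table, members called lower and the 2 not called lower thus both hold these letters. The authors' deposited table gives CCNB2 a fall with GSK591. The CENPA start used here lies 21767 bases downstream of the annotated 5′ end, so the CENPA row may not report this promoter. Whether the letters go with the fall was not tested.

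With MS023 the mitotic genes fell less. The summed level was 2415 and 2608 counts per 1000000 nuclear counts at 2 d, 2348 and 2384 at 4 d, and 2036 and 2048 at 7 d, or 92.7%, 87.3% and 75.3% of the untreated mean. All 6 libraries lay below the untreated ones, and the ranges at 2, 4 and 7 d did not overlap. The Dex 3 h libraries (2673 and 2665) and 1 of Dex 15 min (2620) also lay below the untreated ones, and the other of Dex 15 min was at 3274. The spread within a group can thus be wider than in untreated cells, which limits what the small fall at 2 d shows. At 2 d 6 members fell and 2 rose (CENPA and CDC25B), where 4.21% of all genes were called lower and 6.18% higher. At 4 d 12 fell and 1 rose (CENPA), against 6.37% lower and 7.8% higher, and at 7 d 22 fell and 0 rose, against 6.51% lower and 7.13% higher. At 7 d 1 member, CENPA, was higher at an unadjusted p below 0.05, and DESeq2 also called 0 higher.

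These counts depend on scaling and on single libraries. The median log2 change of the members was -0.30, -0.59 and -0.74 at 2, 4 and 7 d. Mitochondrial genes took 58.7% and 59.6% of counts at 7 d of MS023 against 73.4% and 76.0% in untreated cells, and scaled to total counts the median of all genes moved to 0.68, 0.74 and 1.02. On that scale the member medians turned to 0.37, 0.16 and 0.27, with 0, 0 and 1 called lower and 10, 9 and 9 higher, while the members still lay 0.30, 0.58 and 0.75 below all genes. Each MS023 direction below is thus relative to other nuclear genes. Without replicate 2 of Dex with MS023, 12, 27 and 37 members fell, including each of those called with it. In that fit 5.38%, 7.47% and 7.91% of 24577 genes were called lower. At 2 d the count was 2 or 3 without either untreated or either MS023 library, and at 7 d it was 13 without untreated replicate 2 and 11 without MS023 replicate 2.

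INCENP, the scaffold of the chromosomal passenger complex, had the largest fall among members at 7 d of MS023. It was at 29.1 and 23.1 CPM untreated, 16.8 and 15.0 at 2 d, 11.9 and 15.2 at 4 d, and 7.37 and 7.46 at 7 d. The change at 7 d was -1.81 (SE 0.21, adjusted p = 7.01e-07), 3.51-fold lower, and no treated library overlapped the untreated ones. BIRC5, its partner, was at 19.9 and 17.8 CPM at 2 d, 17.3 and 17.2 at 4 d, and 11.0 and 11.9 at 7 d (-1.29, SE 0.14, adjusted p = 1.37e-09). RACGAP1 was at 3.54 and 2.32 CPM at 7 d (-1.64, SE 0.26, adjusted p = 1.09e-05). KIF14 at 4.60 and 4.34 CPM (-1.35, adjusted p = 0.0475) and TPX2, which activates AURKA on spindle microtubules, at 5.24 and 7.09 CPM against 15.3 and 14.5 (-1.27, adjusted p = 0.0338), were close to the threshold. Both lost the call without any 1 of the untreated or MS023 7 d libraries.

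By role, both chromosomal passengers fell at 2, 4 and 7 d of MS023. At 7 d 4 of 6 cyclin, CDK1 and CDC25 genes fell, 3 of 4 mitotic kinases, 4 of 11 kinesins, 3 of 5 anaphase genes, 2 of 6 chromosome structure genes, and 1 each of the checkpoint, cytokinesis and spindle assembly genes. FOXM1 fell at 4 and 7 d (-0.52 and -0.82), with 10.2 and 11.6 CPM at 7 d. None of the 7 kinetochore and centromere genes passed at 7 d by edgeR. Among the reference members, CDK1 was at 3.40 and 4.05 CPM at 7 d, CCNB1 at 10.3 and 8.61, AURKA at 8.00 and 6.88, PTTG1 at 4.82 and 4.78 and NCAPG at 2.97 and 2.97, each called lower. PLK1 at 21.4 and 15.3 CPM (-0.23, 95% interval -0.50 to 0.04), MKI67 at 36.4 and 39.2, TOP2A at 21.7 and 24.8, CENPF at 15.0 and 18.5, KIF11 at 7.37 and 8.32, BUB1 at 3.12 and 3.98, NDC80 at 0.99 and 2.32 and SGO1 at 1.20 and 1.74 did not pass.

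CCNB2 was lower in each MS023 group. It was at 13.7 and 11.6 CPM at 2 d, 13.4 and 13.3 at 4 d, and 13.1 and 13.1 at 7 d, against 26.9 and 28.0 untreated. The log2 changes were -1.12, -1.04 and -1.07 (SE 0.15, 0.15 and 0.15; adjusted p = 4.58e-07, 5.25e-07 and 4.04e-07), so the level was already low at 2 d. The authors' deposited table gives CCNB2 -0.14, -0.38 and -0.49. CDC25B, the phosphatase that first activates CDK1, was at 77.9 and 71.0 CPM at 2 d of MS023 against 57.9 and 59.5 untreated, and at 53.0 and 46.6 CPM at 7 d. Its rise at 2 d (0.34, SE 0.10, adjusted p = 0.0263) was not called without either untreated or either MS023 library (adjusted p 0.057 to 0.28).

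Tested directly at the same dose and time, the inhibitors differed on many of these genes. GSK591 was lower than MS023 for 1 member at 2 d (AURKB, -0.68) and higher for 1 (CCNB2), where 1.58% of all genes were called lower and 1.11% higher. At 4 d 21 members were lower and 1 higher, against 3.52% of all genes lower and 2.51% higher, and at 7 d 16 were lower and 1 higher, against 4.47% and 4.91%. The member medians were -0.11, -0.77 and -0.58. AURKB differed by -1.83 at 4 d and -1.62 at 7 d (SE 0.16, adjusted p = 8.22e-11), PLK4 by -1.30 and KIF18B by -1.28 at 7 d. Among the members called, BUB1B, the checkpoint protein BUBR1, showed the largest difference at 7 d (-1.75, SE 0.50, adjusted p = 0.0282). SPC25, a kinetochore protein with a mean below 1 CPM in both groups, had -1.85 but was not called (adjusted p = 0.115). CCNB2 was the member that was higher with GSK591 at each time, by 1.24, 1.08 and 0.95 (adjusted p = 1.89e-07, 3.45e-07 and 7.43e-06). Leaving out either GSK591 or either MS023 library at 4 d left 12 lower, and at 7 d 8 were lower without either GSK591 library or without MS023 replicate 2.

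INCENP, the largest fall with MS023, and RACGAP1 were not called between the inhibitors at 7 d, nor was the difference in FOXM1 or PLK1. A missed threshold does not show that the inhibitors act alike on them. Scaled to total counts, 49 members were lower with GSK591 than with MS023 at 7 d. On that scale the median of all genes at 7 d was raised over untreated cells with MS023 but not with GSK591. The 49 are thus not read as particular to the members.

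The steps between times placed most of the GSK591 fall before 4 d. From 2 to 4 d of GSK591 18 members fell and 0 rose, against 2.25% of all genes lower and 1.14% higher, with a median of -0.83. At an unadjusted p below 0.05 0 rose, and DESeq2 called 0 higher. The deepest steps were in NCAPH, NCAPG, CDK1 and AURKB (-1.68, -1.54, -1.52 and -1.52). The count was 9 without GSK591 2 d replicate 2, 8 without GSK591 4 d replicate 1, and 4 with total counts. From 4 to 7 d 2 fell (NUSAP1, -0.87, and KIF18B, -0.52) and 1 rose (CDC20, the activator of the anaphase-promoting complex, 0.59), where 4.25% of all genes were called lower and 4.05% higher. These 3 calls, seen after their values, rested on single libraries: without any 1 of the 4 libraries compared 0 or 1 member fell.

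With MS023 4 members fell from 2 to 4 d (SPC24, CDC25B, CDC20 and ESPL1, by -0.55 to -0.86), against 2.69% of all genes lower. From 4 to 7 d 6 fell (INCENP, PTTG1, AURKA, NUSAP1, KIFC1 and BIRC5), against 4.76%. INCENP (-0.87) and PTTG1 (-0.81) had the largest steps. Leaving out 1 of the libraries compared left 1 or 2 at the first step and 1 to 3 at the second, and with total counts neither step had a call.

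Dex alone changed few of these genes by the test. At 15 min 0 of 56 were called by edgeR, where 1.26% of all genes were. At an unadjusted p below 0.05 there were 3, and DESeq2 called 0. At 3 h 4 members rose and 0 fell, against 6.11% of all genes higher and 4.41% lower, and the member median was -0.04. The share of members called higher was thus near that of all genes. Both Dex 3 h libraries lay below both untreated ones for 22 members and above them for 10, the 4 called among the 10. The share of all genes that separated in this way is not given here, so these 2 counts are not read as an effect on the members. SPC24, a subunit of the NDC80 kinetochore complex, rose from 6.56 and 5.74 CPM to 12.4 and 13.6 CPM at 3 h (1.08, SE 0.20, adjusted p = 1.29e-04). Both Dex 3 h libraries were above both untreated ones, with 8.88 and 8.80 CPM at 15 min. Whether the counting used strand is not given in the sources used here, so calls of single members, this one included, may hold reads of overlapping genes. CENPA (0.55), PLK1 (0.44) and CDC20 (0.41) were the others, with 23.8 and 29.0 CPM untreated and 35.8 and 34.4 CPM at 3 h for CDC20. With total counts, with no filter on low counts or by DESeq2, 2 rose, and 1 to 5 rose when 1 library was left out.

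Adding an inhibitor to Dex for 3 h changed no member by this test. With GSK591 0 were called against Dex alone, where 0% of all genes were, 1 had an unadjusted p below 0.05 and DESeq2 called 0. With MS023 0 were called, where 0.196% of all genes were, although 22 were higher at an unadjusted p below 0.05. DESeq2 called 1 higher. At that unadjusted threshold 30 members were higher with replicate 1 of Dex with MS023 left out and 0 with replicate 2, the library that stood apart, left out. Leaving out either Dex 3 h library gave 10 or 11. The median log2 change of the members was 0.26 with both libraries and 0.02 without replicate 2. Shares of all genes at the unadjusted threshold are not given here, so these counts are not read as particular to the members.

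The effect of 7 d of inhibitor was measured again in libraries that shared none with the first comparison, by setting cells pretreated and then given Dex against cells given Dex alone. After GSK591 and 3 h of Dex 40 members were lower and 0 higher, against 7.36% of all genes lower and 6.2% higher, with a median of -1.47. All 40 were among the 45 that fell without Dex (88.9% of these and 100% of the 40), and 55 of 56 had the same sign. Both lists come from the same fit, with a shared estimate of spread for each gene, so their overlap is partly built in. This holds for MS023 below too. The overlap and same-sign share of all genes are not given here, so these shares are not read as particular to the members. After GSK591 and 15 min of Dex 42 were lower and 0 higher, against 8.58% lower and 6.75% higher, and 26 without Dex 15 min replicate 2. At an unadjusted p below 0.05 1 member was higher in each, and DESeq2 called 0 higher.

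AURKB was at 7.72 and 8.02 CPM after GSK591 and 3 h of Dex, against 32.4 and 30.3 CPM with Dex alone. MKI67 was at 13.5 and 15.8 against 65.3 and 56.9 CPM. Neither pair of groups overlapped. CCNB2 was at 36.3 and 34.2 CPM against 31.9 and 22.8 CPM, and CENPA at 35.5 and 38.3 against 32.7 and 34.7 CPM, and neither was called.

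After MS023 and 3 h of Dex 18 members were lower and 0 higher, against 6.11% of all genes lower and 5.43% higher, with a median of -0.57. Of these 14 were among the 22 that fell without Dex (63.6% of the 22 and 77.8% of the 18). The sign was the same for 54 of 56, but 55 of 56 lay below 0 in each of the comparisons. Across members the log2 changes without and with 3 h of Dex correlated weakly (r = 0.23). The value was 0.71 with MS023 and 15 min of Dex, and 0.79 with GSK591 and 3 h of Dex. The members furthest apart at 3 h with MS023 had wide errors, with interactions of 1.76 for KIF20B (SE 0.93), 1.52 for KIF15 (SE 0.60) and 1.18 for CENPF (SE 0.82). No interaction was called, so the low r is not read as another effect under Dex. After MS023 and 15 min of Dex 29 were lower and 0 higher, against 7.75% lower and 7.54% higher, and 19 of the 22 were among them. That count was 44 without replicate 2 of Dex with MS023, 17 by DESeq2, and 14 to 19 without Dex 15 min replicate 2 or either of the pretreated libraries. In the fit that gave 44, 9.74% of 24577 genes were called lower. INCENP was at 8.50 and 8.93 CPM after MS023 and 3 h of Dex against 18.3 and 17.8 CPM with Dex alone. It was thus lower there too (-1.05, adjusted p = 0.00169). At an unadjusted p below 0.05 0 members were higher at either Dex time, and DESeq2 called 0 higher.

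**Figure D4:**
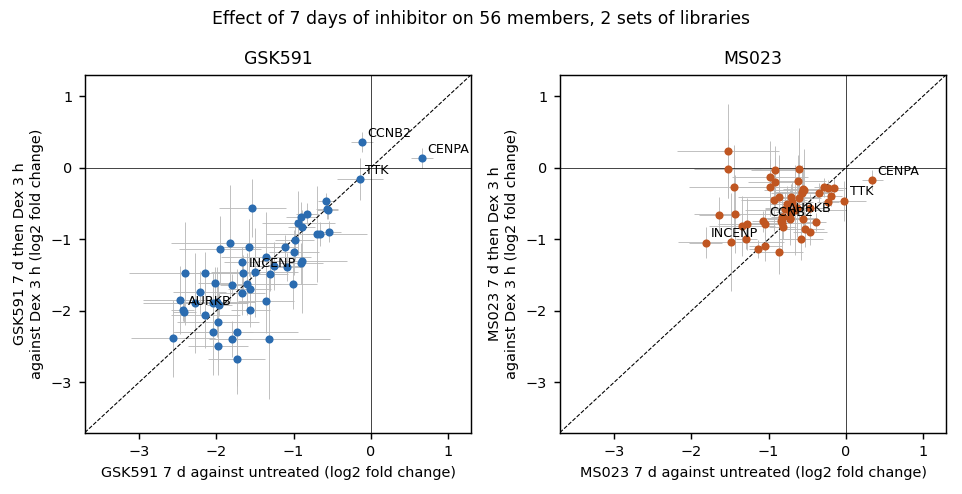
Each point is 1 of 56 members: log2 fold change of 7 d of inhibitor against untreated cells (horizontal) and of 7 d of inhibitor then Dex 3 h against Dex 3 h (vertical), for GSK591 (left) and MS023 (right), with standard errors as lines and the line of equality dashed. The comparisons share no library but come from the same fit, and 55 of 56 members have the same sign with GSK591 and 54 of 56 with MS023. The correlation across members is 0.79 with GSK591 and 0.23 with MS023.

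Dex changed few members by the test in pretreated cells. After GSK591 0 fell and 2 rose at 3 h (CCNB2, 0.48, and SPC24, 0.95), where 4.46% of all genes were called lower and 5.39% higher. At 15 min CDC25B was lower (-0.52) and KIF18B higher (0.67), against 2.09% of all genes either way. After MS023 0 fell and 2 rose at 3 h (SPC24, 0.65, and RACGAP1, 0.80), against 5.38% lower and 5.72% higher, and at 15 min 1 was lower (CDC25B, -0.68, adjusted p = 3.23e-05), against 2.07% either way. At 3 h 1 member was lower at an unadjusted p below 0.05 after GSK591 and 0 after MS023, and DESeq2 called 0 members in either direction after either inhibitor. At 15 min after GSK591 DESeq2 called 0 members higher. CDC25B after MS023 went from 53.0 and 46.6 CPM to 29.3 and 33.1 CPM at 15 min and was at 54.7 and 56.5 CPM at 3 h. The interaction of Dex at 3 h with 7 d of inhibitor was called by edgeR for 0 members with either inhibitor, where 0.223% of all genes were. At an unadjusted p below 0.05 there were 2 with GSK591 and 5 with MS023, and DESeq2 called 0.

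The authors' deposited tables of their own comparisons list 50 of the 56 members. For GSK591 at 2, 4 and 7 d, 25, 49 and 49 members were called lower in the authors' deposited tables, where 4.36%, 8.01% and 7.98% of the 28873 genes listed were. The same authors' deposited tables called 0 members higher, against 2.63%, 7.38% and 6.58% of genes. For MS023 the authors' deposited tables have 15, 26 and 44 members lower, against 4.95%, 7.31% and 7.55%, and 1, 0 and 0 higher, against 4.51%, 6.05% and 5.9%. The authors' deposited table for 7 d of GSK591 gives AURKB -2.40 and KIF18B -1.98, near the -2.44 and -2.41 from the counts. It gives KIF20A, a kinesin of cytokinesis, -2.67, where the count table gives -0.66 with 14.1 and 12.8 CPM untreated and 9.88 and 6.97 CPM treated. The values of both sources rest on the same libraries. The order of levels also differs: in the authors' deposited table KIF18B has a mean signal of 491 and CCNB2 of 127, whereas their mean CPM over the 30 libraries of the count table are 21.2 and 23.4. How the counts behind those tables were made is not given in the sources used here.

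**Figure D5:**
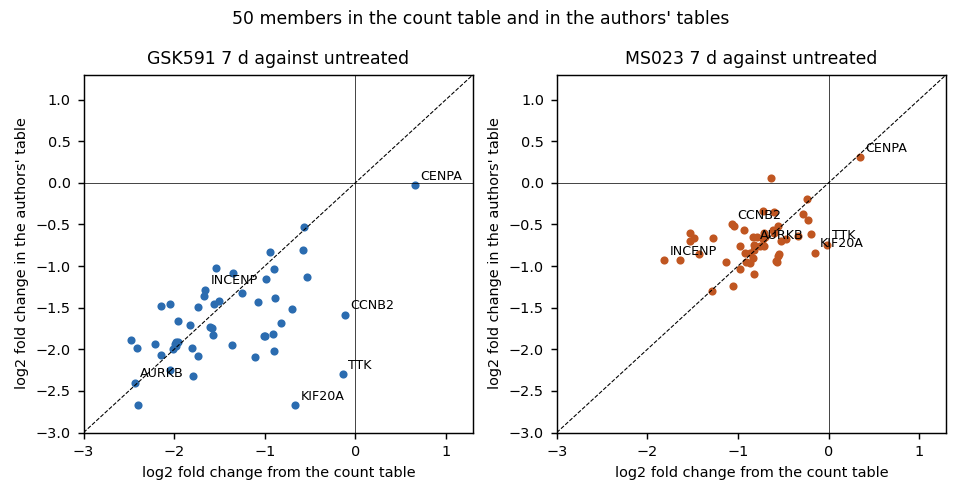
Log2 fold change of 50 members at 7 d of GSK591 (left) and MS023 (right) from the count table (horizontal) and from the authors' deposited tables (vertical), with the line of equality dashed. CCNB2, TTK and KIF20A lie below the line with GSK591, and CENPA is higher in the counts alone.

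Levels differed widely between members. Per kilobase of exon in untreated cells, AURKB (16.0 CPM per kb, SD 1.18, n = 2), CDC25B (13.6), CDC20 (13.0) and UBE2C (12.5) had the highest levels, and KIF15 (0.59), SGO1 (0.60) and CENPE (0.60) the lowest. The feature type counted is not given in the sources used here, and division by exon length holds only if exons were counted. Per kilobase of the whole gene the same 4 were highest in another order (CDC20 6.22, AURKB 6.12, UBE2C 3.66 and CDC25B 3.04 CPM per kb), and SPC25, NUF2 and KIF15 were lowest. On the exon scale, AURKB lay above CDC25B by more than their spread, while CDC25B and CDC20, CDC20 and UBE2C, and the last 3 genes did not differ from their neighbours in that order beyond their spread. Exons of 23 of the 56 members overlap another annotated gene, 4 on the same strand (BUB1B, CENPA, NUSAP1 and PRC1) and 20 on the opposite strand, and reads of such pairs may be assigned to either.

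Other genes of the same pathway moved with the members. Of 60 further mitotic genes, 48 fell and 0 rose at 7 d of GSK591, where 6.52% of all genes were called lower and 6.68% higher. At 7 d of MS023 30 fell and 0 rose, against 6.51% and 7.13%, and the counts of the other lists below are read against the same shares. Among the genes called, SKA1, NEK2 and CKAP2L, of the kinetochore, the centrosome and the spindle, had the largest falls with GSK591 (-3.07, -2.80 and -2.56), and NCAPG2, TRAIP and CENPU with MS023 (-1.27, -1.22 and -1.21). Of 13 cohesin genes 3 fell with each inhibitor, among them CDCA5 (sororin, -1.75 and -0.82). Of 26 genes of the anaphase-promoting complex and mitotic entry 8 fell and 1 rose with GSK591 and 4 fell and 1 rose with MS023. CDC14B, a phosphatase, was the one that rose (0.61 and 0.46), while CCNF, CDC25A and PKMYT1 fell with both (-1.51, -1.42 and -1.28 with GSK591).

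The regulators of these promoters did not move as a block. Of 23 MuvB, DREAM and E2F genes 11 fell and 2 rose with GSK591 at 7 d, against 6.52% of all genes lower and 6.68% higher, so the share that rose was near that of all genes. With MS023 5 fell and 0 rose, against 6.51% and 7.13%. MYBL2 (B-MYB) fell by 2.14 on the log2 scale with GSK591 (adjusted p = 1.13e-04) and by 0.92 with MS023 (adjusted p = 0.03). E2F1, an activator, changed by -1.58 and -0.71, E2F7, a repressor, by -1.14 and -0.96, and LIN9, a MuvB subunit, by -1.08 and -0.35, each called. E2F8, another repressor, fell with GSK591 (-2.10) and had -0.43 with MS023 (adjusted p = 0.199). E2F4, the repressor partner of DREAM, was not called with either (0.08 and -0.08). RBL1, a pocket protein beside RB1 and RBL2, fell with GSK591 (-2.29). E2F5 and LIN37 rose with GSK591 (0.55 each).

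Of 43 G1/S and replication genes 32 fell and 0 rose with GSK591 at 7 d, against 6.52% of all genes lower and 6.68% higher. With MS023 21 fell and 0 rose, against 6.51% and 7.13%. CDC45, CLSPN and MCM2, of the replication fork, had the largest falls with GSK591 (-2.35, -2.17 and -2.11). Of 7 CDK inhibitor genes 5 passed the filter on low counts. CDKN1A (p21) rose by 1.41 with GSK591 (SE 0.15, adjusted p = 1.38e-09) and by 0.64 with MS023 (adjusted p = 0.00249), and CDKN1C (p57) by 2.10 and 2.67. With MS023 CDKN2C and CDKN1B were called higher too (0.49 and 0.42).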

How the data were processed

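The authors deposited 1 table of counts per gene for 30 PRO-seq libraries. Subread, featureCounts 2.0.1 and hg38 are named in the submitters' processing notes, whereas the aligner, feature type, strand setting and annotation are not given in the sources used here. All 58780 identifiers match GENCODE 29. Per the file headers, the authors' deposited comparison tables are DESeq2 output with a mean signal (baseMean), log2 fold changes and p-values. The members and lists were chosen with earlier results of these data known. Counts were fitted with edgeR 4.0.16 (R 4.3.3): TMM scaling, filterByExpr (minimum count 10, leaving 22919 genes and all 56 members), robust quasi-likelihood fits on 15 groups, 27 comparisons and Benjamini-Hochberg adjustment at 0.05. With 2 libraries a group there were 15 residual degrees of freedom, and the common biological coefficient of variation was 10.6%. Precision is limited by 2858 to 16758 member counts per library. The test was checked on simulated counts with known changes. Values per library are given for the 5 largest called falls and rises of at least 5 CPM on average without overlap in each inhibitor comparison, for members called against the majority, and for reference members of each role. Other genes were taken from 6 lists (MuvB, DREAM and E2F; other mitotic; anaphase-promoting complex and mitotic entry; cohesin; G1/S and replication; CDK inhibitors), naming fixed regulators and the 3 largest called changes. Alternatives were DESeq2 1.42.0, its size factors, total counts, no mitochondrial or rRNA genes, no filter on low counts (any gene with at least 1 count), only the groups compared, a replicate block, and leaving out each library in turn. The alternative without replicate 2 of Dex with MS023 was chosen after seeing the data.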

Additional observations from a re-analysis of the deposited data

How the results depend on the processing

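The counts of members called rest on 2 libraries a group and on few reads for low members, which limits what depth can show. Without mitochondrial and rRNA genes all 54 counts of members (27 comparisons, lower and higher) stayed within 1.5 times the value given, and with DESeq2's size factors 53 did, the exception being 1 member higher after GSK591 and 15 min of Dex. The replicate block changed none beyond 1.5 times (6, 38 and 45 lower at 2, 4 and 7 d of GSK591, and 6, 12 and 22 with MS023). The replicate numbers showed no pairing common to all groups. Over 105 pairs of groups the correlation of deviations was -0.451 to 0.487 (median 0.021, above 0.1 in 22). A batch shared by some of the groups would not show in that median and was not tested.

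For each change beyond 1.5 times below, the cause was not tested beyond what the alternative itself removes. Shares of all genes under these alternatives are not given in this section, so these counts are not read as particular to the members. With total counts 1, 20 and 32 members were lower at 2, 4 and 7 d of GSK591 and 0 higher at 7 d, and with MS023 0, 0 and 1 were lower and 10, 9 and 9 higher. Between the inhibitors 4 were lower at 2 d, and 49 lower and 0 higher at 7 d. The steps gave 4 lower from 2 to 4 d and 8 lower and 0 higher from 4 to 7 d of GSK591, and 0 and 0 lower with MS023. For Dex, total counts gave 2 higher at 3 h, 0 lower and 0 higher for 15 min after GSK591, 2 higher for Dex with MS023 against Dex, 0 higher for 3 h after MS023, and, for MS023 then Dex against Dex, 0 lower and 4 higher at 3 h and 4 lower at 15 min. Total counts also turned the sign of BIRC5 (0.11) and KIF18B (0.17) at 2 d of MS023.

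Fitting only the groups compared gave 23 lower at 2 d of GSK591; 22, 32 and 37 lower at 2, 4 and 7 d of MS023, with 1 higher at 7 d; and 4 and 34 lower at 2 and 4 d and 2 higher at 7 d between the inhibitors. It gave 32 and 5 lower for the steps with GSK591 and 7 and 16 with MS023. For Dex it gave 5 lower at 3 h, 1 higher at 3 h after GSK591, 0 lower and 0 higher at 15 min after GSK591, 5 higher at 3 h after MS023 and 1 higher in the MS023 interaction. Without a filter on low counts 8 were lower at 2 d of GSK591, 1 higher at 2 d of MS023, and 1 lower from 4 to 7 d of GSK591. With Dex there were then 1 lower and 2 higher at 3 h, 1 higher at 3 h and 0 higher at 15 min after GSK591, 6 higher for Dex with MS023 against Dex, and 1 higher at 3 h after MS023. DESeq2 gave 1 higher at 2 d of MS023, 0 lower from 4 to 7 d of GSK591, 2 higher for Dex at 3 h, 0 higher at 3 h and at 15 min after GSK591, 0 higher at 3 h after MS023, 1 higher for Dex with MS023, and 17 lower for MS023 then Dex 15 min.

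Leaving out 1 library at a time, the count of members lower ranged from 1 to 11, 27 to 46 and 28 to 49 at 2, 4 and 7 d of GSK591 (higher at 7 d, 0 to 1). With MS023 it ranged from 2 to 12, 8 to 27 and 11 to 37 (higher at 2 d, 1 to 3). Between the inhibitors the ranges were 1 to 3, 12 to 30 and 8 to 23. For the steps they were 8 to 23 and 0 to 4 with GSK591 (higher from 4 to 7 d, 0 to 1) and 1 to 5 and 1 to 11 with MS023. For Dex at 3 h 0 to 1 were lower and 1 to 5 higher, and for Dex with MS023 against Dex 0 to 25 were higher. After GSK591, 0 to 2 were higher with Dex at 3 h, and 0 to 1 lower and 0 to 1 higher at 15 min. Against Dex alone, 29 to 46 were lower and 0 to 1 higher at 3 h after GSK591, 26 to 48 lower and 0 to 1 higher at 15 min, and 14 to 44 lower at 15 min after MS023. Dex at 3 h after MS023 gave 0 to 2 higher. The upper ends for members lower came without replicate 2 of Dex with MS023.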
